A study of Homo sapiens with 23 samples.

Results

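Genes of the synapse were examined in thalamus organoids (ThOs): 91 genes of the 9497 listed for each library, chosen by their symbols from the families of synaptic vesicle proteins, release proteins, adhesion molecules, scaffolds and receptors for glutamate, GABA, glycine and acetylcholine. They comprised 26 presynaptic genes, 17 receptor genes, 12 postsynaptic scaffold genes, 6 adhesion genes, 19 trafficking genes that all cells use, and 11 genes that share only the start of a symbol with these families (for example RAB35 and SYNCRIP). SYT4, the SYNE genes and genes of the Y chromosome were left out of the selection, and 61 of the 91 genes had one of the 4 synaptic roles. ThOs were grown from the human embryonic stem cell line H1, and 12 RNA-seq libraries, each from 3 pooled ThOs, formed 6 groups of 2. Libraries labelled WT came from unedited H1 cells, those labelled KO from H1 cells whose c-JUN gene (JUN) had been targeted with CRISPR/Cas9, and those labelled OE from the knockout carrying a tet-on construct through which doxycycline switches c-JUN on. Each of the 3 was collected at day 25 and at day 30 of culture. These names were taken from the sample titles, and the genotype label of the OE libraries reads c-Jun Knockout. The study describes more than 1 knockout clone, and the labels do not say which clone a library came from.

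At a chemical synapse, vesicles loaded with transmitter dock at the presynaptic membrane and fuse when calcium enters: the SNARE proteins VAMP2, SNAP25 and syntaxin form the fusion complex, synaptotagmins sense calcium, and synapsins, RAB3 and SV2 proteins ride on the vesicle. On the other side, ionotropic receptors (GRIA, GRIK and GRIN for glutamate, GABR for GABA, GLR for glycine, CHRN for acetylcholine) open ion channels, and the DLG, SHANK and HOMER scaffolds hold receptors in place. GRM receptors signal through G proteins, and the product of GRM8, counted here with the receptors, is known from the presynaptic side. Thalamic relay neurons release glutamate and are known for loading it with the transporter VGLUT2, encoded by SLC17A6. c-JUN is a subunit of AP-1, a transcription factor dimer that binds the letters TGANTCA.

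The deposited values were normalized whole numbers that shared a minimum of 11, a median of 106 and a maximum of 9910 across libraries, so the read depth is unknown, no counting interval could be given, and levels were not compared between genes. Replicates correlated across genes with a Spearman rho of 0.936 to 0.959 in the WT and OE groups but 0.821 and 0.769 in the KO groups at days 25 and 30, and KO replicate 2 of day 30 stood apart from the rest (median rho with the other libraries 0.745). The RNA of JUN itself read higher in KO (196 to 353) than in WT (128 to 162), which is not a loss of RNA. The exact two-sided permutation test gave p = 0.0286, the smallest that 4 against 4 can give (adjusted p = 0.0571 over 2 comparisons). The study reports that its KO lines lacked c-JUN protein by western blot. It also reports no c-JUN mRNA by RT-qPCR in KO neural progenitors and cerebral organoids, unlike the values here. JUN in OE (202 to 362) overlapped KO (log2 fold change of OE against KO -0.033, exact two-sided permutation test, p = 0.886), so its RNA showed neither a loss in KO nor a gain of OE over KO. Groups are therefore called by their labels throughout. Nothing in the labels says whether the 2 libraries of a group came from separate cultures, so p-values measure only the spread between these libraries.

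To show the DNA in front of these genes, the 250 bases before the RefSeq start are printed for SV2C, the presynaptic gene that changed most, for RAB3B, whose promoter alone among the 71 of 91 members with such a window held the AP-1 letters, and for SYN1, which held the letters of a cAMP response element (TGACGTCA) and of one part of the neuron-restrictive RE1 element (TTCAGCACC). The sequences are from RefSeq (GRCh38.p14), 5′ to 3′ on the strand of the gene, and capitals mark matches to these 3 letter strings or to the GC box GGGCGG, searched on both strands. SV2C lies on the plus strand (chr5:76083133-76083382), and RAB3B (chr1:51990701-51990950) and SYN1 (chrX:47619858-47620107) on the minus strand.
SV2C: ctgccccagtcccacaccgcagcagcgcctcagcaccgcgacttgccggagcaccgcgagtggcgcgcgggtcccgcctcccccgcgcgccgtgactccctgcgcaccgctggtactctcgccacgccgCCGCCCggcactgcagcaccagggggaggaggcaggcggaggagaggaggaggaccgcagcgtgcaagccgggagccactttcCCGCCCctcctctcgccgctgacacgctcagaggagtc
RAB3B: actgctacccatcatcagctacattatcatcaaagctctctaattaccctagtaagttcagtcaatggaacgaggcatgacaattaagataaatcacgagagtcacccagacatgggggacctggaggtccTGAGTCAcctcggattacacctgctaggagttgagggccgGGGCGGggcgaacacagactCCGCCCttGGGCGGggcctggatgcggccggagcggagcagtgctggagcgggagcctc
SYN1: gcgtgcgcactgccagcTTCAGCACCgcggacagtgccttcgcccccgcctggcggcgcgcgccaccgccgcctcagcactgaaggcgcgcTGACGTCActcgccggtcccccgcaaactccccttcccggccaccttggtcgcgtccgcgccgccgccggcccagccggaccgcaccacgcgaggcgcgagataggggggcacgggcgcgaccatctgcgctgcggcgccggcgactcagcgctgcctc
The TGANTCA letters stood in 1.41% of member promoters, 3.31% of the 7817 promoters of all genes in the tables and 6.6% of all 27305 RefSeq promoters of this length. In RAB3B the match began 119 bases before the start. The TGACGTCA letters stood in 3 of 71 member promoters (SYN1, STX12 and STXBP3), or 4.23%, against 3.24% for the genes in the tables and 1.77% of all promoters. The TTCAGCACC letters stood in 1.41% of member promoters, 0.217% of those of the genes in the tables and 0.3% of all. The right part of RE1, GGACAGCGC, stood in 1 member promoter (GLRB, the glycine receptor beta subunit) and in 0.469% of all promoters. Matches had to be exact, so the near match ggacagtgc that stands just after TTCAGCACC in SYN1 was not counted. The GC box, whose letters can occur many times in a GC-rich promoter, stood in 62.0% of member promoters, 68.7% of those of the genes in the tables and 42.3% of all. SV2C held the GC box and none of the other 4 strings. None of the 14 receptor promoters held TGANTCA, TGACGTCA or TTCAGCACC in this window.

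Of the 11 contrasts fitted, the one in which members were called was OE against KO averaged over both days, which sets the libraries labelled OE against those labelled KO, whose JUN RNA overlapped. SV2C and GRM8 fell in OE, and these were the 2 of 91 members called at an adjusted p under 0.05 and at least 2-fold (limma over all 9497 genes). Of all genes, 2.22% were called in either direction and 1.17% lower, so the share of members called (2.2%) was that of all genes. At an unadjusted p under 0.05, 24 of 91 members differed (26.4%, against 22.2% of all genes). In bulk RNA, fewer cells of a type and less RNA per cell cannot be told apart.

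SV2C (ENSG00000122012, GRCh38 chromosome 5, 76083383 to 76353939) encodes a membrane glycoprotein of synaptic vesicles that serves as a receptor for botulinum neurotoxin A. Its values were 74 and 40 in WT, 169 and 72 in KO and 16 and 21 in OE at day 25. At day 30 they were 45 and 35 in WT, 70 and 115 in KO and 18 and 24 in OE. Every OE library lay below every WT and every KO library, and the KO libraries spread widely with their lowest value, 70, just under the highest WT value. OE lay wholly below KO in 8.79% of members and 4.51% of all genes, and wholly below WT in 3.3% and 4.34%. Means of SV2C over 4 libraries were 48.5 ± 17.5 in WT, 106.5 ± 46.6 in KO and 19.8 ± 3.5 in OE (SD). The log2 fold change of OE against KO was -2.29 (SE 0.329, limma adjusted p = 0.00941). It was -2.53 at day 25 (adjusted p = 0.0573) and -2.06 at day 30 (adjusted p = 0.197), below 0 on both days without passing on either alone. With only the OE and KO libraries in the fit the averaged call was lost (adjusted p = 0.0509), and over all 19 alternatives the adjusted p ran from 0.00202 to 0.0509.

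GRM8 (ENSG00000179603, GRCh38 chromosome 7, 126438598 to 127253093) encodes the metabotropic glutamate receptor mGlu8, which couples to inhibitory G proteins and is known as a presynaptic brake on release. It was listed at 272 and 238 in WT, 446 and 516 in KO and 192 and 104 in OE at day 25. At day 30 the values were 270 and 198 in WT, 236 and 475 in KO and 236 and 104 in OE. The groups separated at day 25, whereas at day 30 the higher OE library and the lower KO library shared the value 236. The log2 fold change of OE against KO was -1.42 (SE 0.303, limma adjusted p = 0.0344), with -1.76 at day 25 and -1.09 at day 30. This call was lost in 9 of 19 alternatives, where the adjusted p reached 0.151, among them the fits without KO replicate 2 of day 25 (0.0695), OE replicate 1 of day 25 (0.0544), OE replicate 2 of day 25 (0.147), KO replicate 2 of day 30 (0.0938) and OE replicate 2 of day 30 (0.151).

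**Figure D1:**
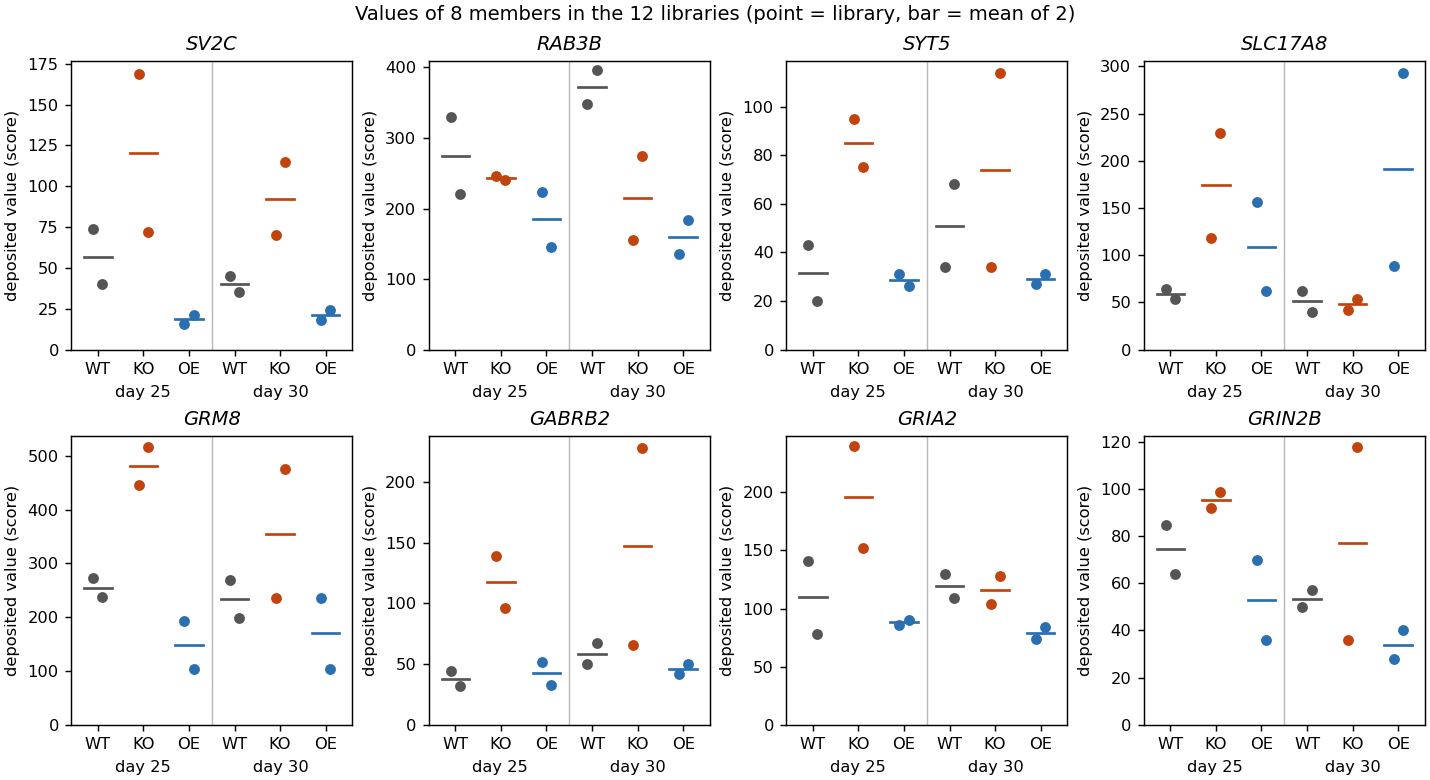
Deposited values (score, linear axis from 0) of 8 members in each library, by WT, KO or OE and by day. Points show the 2 libraries of a group and a bar their mean. SV2C is lowest in all 4 OE libraries (16 to 24), and GABRB2 and SYT5 are higher in every KO library than in any OE library.

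Several further receptor genes had lower values in OE than in KO without being called. GABRB2, the beta 2 subunit of GABA-A receptors, was listed at 139 and 96 in KO and 52 and 33 in OE at day 25, and at 66 and 228 in KO and 42 and 50 in OE at day 30. All KO libraries lay above all OE libraries, though KO replicate 2 of day 30 alone reached 228 (log2 fold change -1.43, SE 0.356, limma adjusted p = 0.0535). In 17 of 19 alternatives GABRB2 kept this direction and stayed uncalled, with log2 fold changes from -1.87 to -0.99 over all 19. The value of -1.87 came without KO replicate 1 of day 30, with replicate 2 the lone KO library of that day. Without both KO libraries numbered 2, a choice made after the data were seen, the log2 fold change was -1.12. GRIA2, the AMPA receptor subunit that limits calcium entry, was listed at 240 and 152 in KO and 86 and 90 in OE at day 25, and at 104 and 128 in KO and 74 and 84 in OE at day 30. The OE libraries again lay below all KO libraries (log2 fold change -0.83, limma adjusted p = 0.0748), as they did in 8.79% of members and 4.51% of all genes. GRIN2B, the NMDA receptor subunit typical of immature neurons, ranged from 36 to 118 in KO and from 28 to 70 in OE, and these ranges overlapped (log2 fold change -0.93, limma adjusted p = 0.164).

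Over the 17 receptor genes, the median log2 fold change of OE against KO was -0.32 (2 higher, 15 lower), against 0.015 over all genes, of which 48.7% were lower. At an unadjusted p under 0.05, 7 of 17 receptor genes were below KO (41.2%), against 10.7% of all genes. These were GABRB2, GRM8, GRIA2, GRIK1, GRIA1, GRIN2B and CHRNB1, which together cover AMPA, kainate, NMDA, metabotropic, GABA-A and nicotinic receptors. The values above 0 belonged to the kainate receptor subunits GRIK2 (0.30) and GRIK5 (0.16). Other subunits of these receptor classes, not necessarily of the same complexes, did not all show low values in OE. GRIA4 had a log2 fold change of -0.28, GABRA2 of -0.030, CHRNA4 of -0.031 and CHRNB2 of -0.20, with 0.511 the lowest limma adjusted p among them.

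Presynaptic genes showed a median of -0.22 in the same comparison (6 higher, 20 lower). At an unadjusted p under 0.05, 3 of 26 were lower (11.5%, near the 10.7% of all genes) and 1, VAMP2, was higher (11.5% of all genes were). The lower ones were SV2C, SYT5 and SYT14. SYT5, a vesicle synaptotagmin, was listed at 95 and 75 in KO and 31 and 26 in OE at day 25, and at 34 and 114 in KO and 27 and 31 in OE at day 30. All KO libraries exceeded all OE libraries, and 1 KO library of day 30 came close to them (log2 fold change -1.31, SE 0.394, limma adjusted p = 0.0921). SYT14, a synaptotagmin that lacks the calcium-binding residues of SYT1, ranged from 68 to 164 in KO and from 64 to 71 in OE (log2 fold change -0.79, limma adjusted p = 0.103). Over all alternatives the log2 fold change ran from -1.74 to -0.88 for SYT5 and from -1.03 to -0.55 for SYT14. The values of -1.74 and -1.03 came without KO replicate 1 of day 30, with replicate 2 the lone KO library of that day. SYT5 kept its direction and stayed uncalled in 17 of 18 alternatives and SYT14 in 18 of 19.

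The proteins that carry out fusion itself had smaller fold changes than SV2C, SYT5 and SYT14. VAMP2, the vesicle SNARE, was listed at 180 and 101 in KO and 180 and 210 in OE at day 25, and at 202 and 72 in KO and 195 and 243 in OE at day 30. The KO libraries numbered 2 were the low ones, and the other KO libraries reached the OE range (log2 fold change 0.68, limma adjusted p = 0.202). SYT1, the main calcium sensor of fast release, ranged from 206 to 300 in KO and from 196 to 323 in OE (log2 fold change 0.027). SNAP25, a SNARE of the plasma membrane, had a log2 fold change of -0.54, the synapsin SYN1 of -0.20, CPLX2 of -0.17, SV2A of -0.21 and RAB3A of 0.022, with 0.228 the lowest limma adjusted p among them. SLC17A6 ranged from 96 to 136 in KO and from 82 to 184 in OE, with a log2 fold change of 0.11, so the vesicular transporter of thalamic relay neurons did not separate the groups.

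Among the 12 scaffold genes the median was -0.18 and among the 6 adhesion genes -0.34. DLG4, the postsynaptic density protein PSD-95, had a log2 fold change of -0.40, HOMER1 of -0.34 and SHANK2 of -0.34. NLGN1, a postsynaptic adhesion molecule, had one of -0.33 and NLGN2, the neuroligin of inhibitory synapses, of 0.26. None passed the limma test over all genes. The 19 trafficking genes, grouped as genes that all cells use, had a median of -0.23, close to that of the presynaptic genes. DLGAP5 (0.85, limma adjusted p = 0.032) and SYNCRIP (0.54, limma adjusted p = 0.0496) passed the adjusted threshold at under 2-fold. Both belong to the genes that share only the start of a symbol: DLGAP5 acts in mitotic spindles and SYNCRIP binds RNA.

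**Figure D2:**
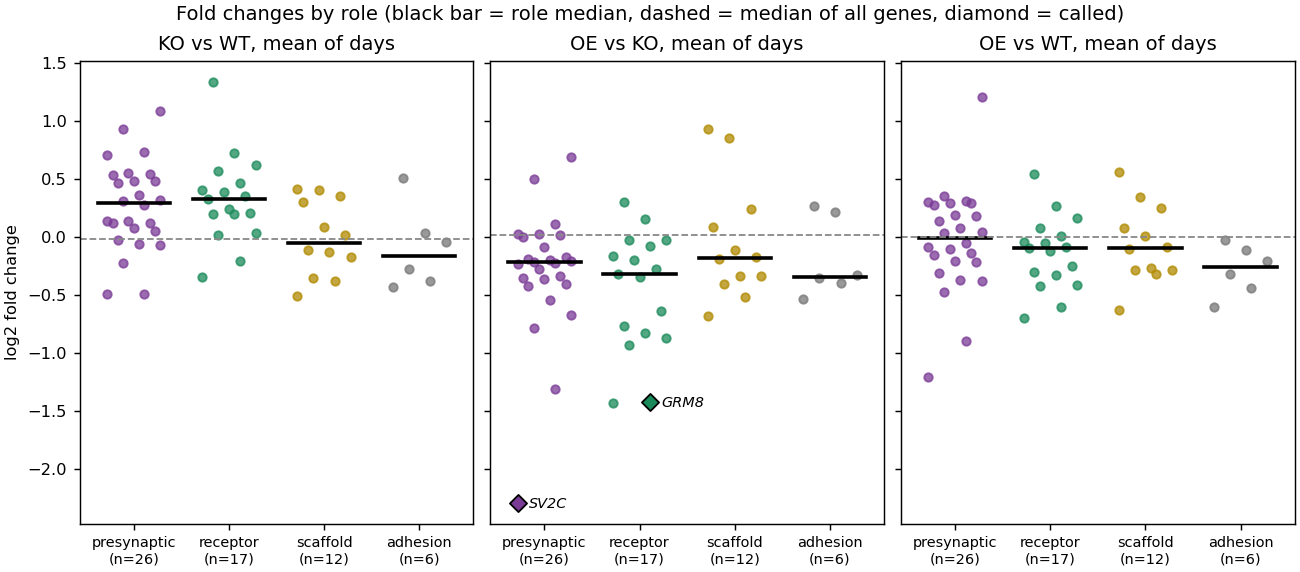
Log2 fold changes (vertical axis) of the 61 members with a synaptic role in 3 comparisons averaged over both days, 1 point per gene, with a black bar at the median of each role and a dashed line at the median of all 9497 genes. Presynaptic and receptor medians lie above the line in KO against WT (0.29 and 0.33) and below it in OE against KO (-0.22 and -0.32), and the called genes SV2C and GRM8 are diamonds.

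KO against WT sets the libraries labelled for the targeted gene against the unedited ones, and it shares its KO libraries with the comparison above, so the values of both are not independent. No member was called (0 of 91, limma), against 0.0211% of all genes. At an unadjusted p under 0.05, 12 of 91 members differed (13.2%, against 15.2% of all genes). The presynaptic median was 0.29 (20 higher, 6 lower) and the receptor median 0.33 (15 higher, 2 lower), against -0.022 over all genes, of which 47.8% were higher. Scaffold genes (median -0.051) and adhesion genes (-0.16) did not lie above all genes. Without KO replicate 2 of day 30 the medians were 0.19 for presynaptic genes (18 higher, 8 lower) and 0.11 for receptor genes (11 higher, 6 lower), and without KO replicate 1 of day 25 the presynaptic median was 0.18.

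The receptor with the largest value was GABRB2, listed at 44 and 32 in WT at day 25 and 50 and 67 at day 30. Its KO libraries, given above, exceeded WT clearly at day 25 and overlapped it by 1 unit at day 30 (log2 fold change 1.33, SE 0.356, limma adjusted p = 0.187). SV2C had a log2 fold change of 1.08 (limma adjusted p = 0.2), SYT5 of 0.93 (0.299) and GRM8 of 0.72 (0.295). SYN3, a synapsin, was listed at 18 and 23 in WT and 37 and 44 in KO at day 25, and at 20 and 26 in WT and 34 and 32 in KO at day 30. SNAP91, the clathrin adaptor AP180, which sizes recycled vesicles and is named here after its values were seen, ranged from 76 to 132 in WT and from 134 to 170 in KO. In both genes every KO library lay above every WT library, and their log2 fold changes were 0.73 (limma adjusted p = 0.223) and 0.54 (0.233). Such separation held for 3.3% of members in the upward direction and 2.74% of all genes. Without KO replicate 1 of day 30, 3 members passed the call: GABRB2 (1.78), SYT5 (1.36) and SV2C (1.26). These are 3.3% of members, below the 5.66% of all genes called in the same fit. The fit leaves a lone KO library at day 30, replicate 2, and assumes that it varies like the other groups.

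The lowest presynaptic log2 fold changes of KO against WT were those of VAMP2 (-0.50, limma adjusted p = 0.434) and RAB3B, and that of VAMP2 was 0.080 without both KO libraries numbered 2. RAB3B, a small GTPase of secretory vesicles, was listed at 330 and 220 in WT, 246 and 241 in KO and 224 and 146 in OE at day 25. At day 30 it was listed at 348 and 396 in WT, 156 and 274 in KO and 136 and 184 in OE. The WT libraries of day 30 were the highest of all 12, and KO lay above OE at day 25 while the 2 overlapped at day 30. Its log2 fold change was -0.49 for KO against WT (limma adjusted p = 0.332) and -0.90 for OE against WT (SE 0.227, limma adjusted p = 0.199). The RAB3B promoter printed above holds the AP-1 letters, and binding of c-JUN there was not analysed here. Its paralogue RAB3C ranged from 178 to 359 in WT, and its highest value, 823, stood in KO replicate 2 of day 30, far from the other KO libraries (193 to 324).

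The days were compared within KO against WT. At day 25 the presynaptic median was 0.47 (21 higher, 5 lower) and the receptor median 0.37 (13 higher, 4 lower). At day 30 they were 0.096 (16 higher, 10 lower) and 0.27 (13 higher, 4 lower), and without KO replicate 2 of day 30 they were -0.12 and -0.082. By the limma test of the difference between days, 0 members and 0 of all genes passed (0% called), and 4 of 91 members had an unadjusted p under 0.05 (5.63% of all genes did): GRIK1, SHANK2, NLGN4X and SYT13. GRIK1, a kainate receptor subunit, was listed at 32 and 21 in WT and 87 and 51 in KO at day 25. At day 30 it was listed at 60 and 52 in WT and 50 and 48 in KO. KO lay above WT at day 25 and just below it at day 30 (difference of log2 fold changes -1.51, SE 0.618, limma adjusted p = 0.802). NLGN4X, a neuroligin, turned on 1 library, with 62 and 11 in KO and 86 and 66 in WT at day 25. At single days, 0 members were called in KO against WT (0.0105% of all genes at day 25 and 0% at day 30). Of the 91 members, 15 at day 25 (13.4% of all genes) and 3 at day 30 (7.36% of all genes) had an unadjusted p under 0.05. Leaving out KO replicate 1 of day 25 gave 2 members called at that day, SYT11 and NLGN4X (2.2% of members, against 0.358% of all genes in that fit). Leaving out KO replicate 1 of day 30 gave 5 at day 30, namely CHRNA4, GABRB2, RAB3C, VAMP2 and SHANK3 (5.49% of members, against 11.4% of all genes in that fit). OE against KO also had 0 members called at day 25 (0.274% of all genes) and at day 30 (0.0842%), with 13 and 10 members at an unadjusted p under 0.05 (17.8% and 10.9% of all genes).

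OE against WT sets the libraries labelled OE against the unedited ones. No member was called (0 of 91, limma, against 0.158% of all genes), and 10 of 91 had an unadjusted p under 0.05 (8.21% of all genes did). Presynaptic genes were evenly divided, with a median of -0.011 (13 higher, 13 lower). The receptor median was -0.096 (5 higher, 12 lower), against 0.0013 over all genes, and all 6 adhesion genes had negative values (median -0.26). With 1 library left out, the presynaptic median ran from -0.16 (without OE replicate 2 of day 30) to 0.067 (without OE replicate 1 of day 30), and the receptor median from -0.21 (without OE replicate 1 of day 25) to -0.0009 (without OE replicate 1 of day 30). SV2C was again the lowest of the presynaptic genes (log2 fold change -1.21, SE 0.329, limma adjusted p = 0.243), and it passed the call in 2 alternatives, with only the WT and OE libraries in the fit (0.0491) and with library weights (0.0154). NLGN1 was listed at 184 and 181 in WT and 118 and 148 in OE at day 25, and at 226 and 193 in WT and 145 and 105 in OE at day 30. Every OE library lay below every WT library (log2 fold change -0.61, SE 0.188, limma adjusted p = 0.353), as in 3.3% of members and 4.34% of all genes. SLC17A8, the vesicular glutamate transporter VGLUT3, was listed at 64, 54, 62 and 40 in WT and at 156, 62, 89 and 293 in OE over days 25 and 30. The OE libraries spread over a wide range and the lowest of them fell within WT (log2 fold change 1.21, limma adjusted p = 0.42). In KO the same gene was listed at 118 and 230 at day 25 but 42 and 54 at day 30. At single days 0 members were called (0% of all genes at day 25, 0.0316% at day 30), with 3 and 5 members at an unadjusted p under 0.05 (4.18% and 4.07% of all genes).

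**Figure D3:**
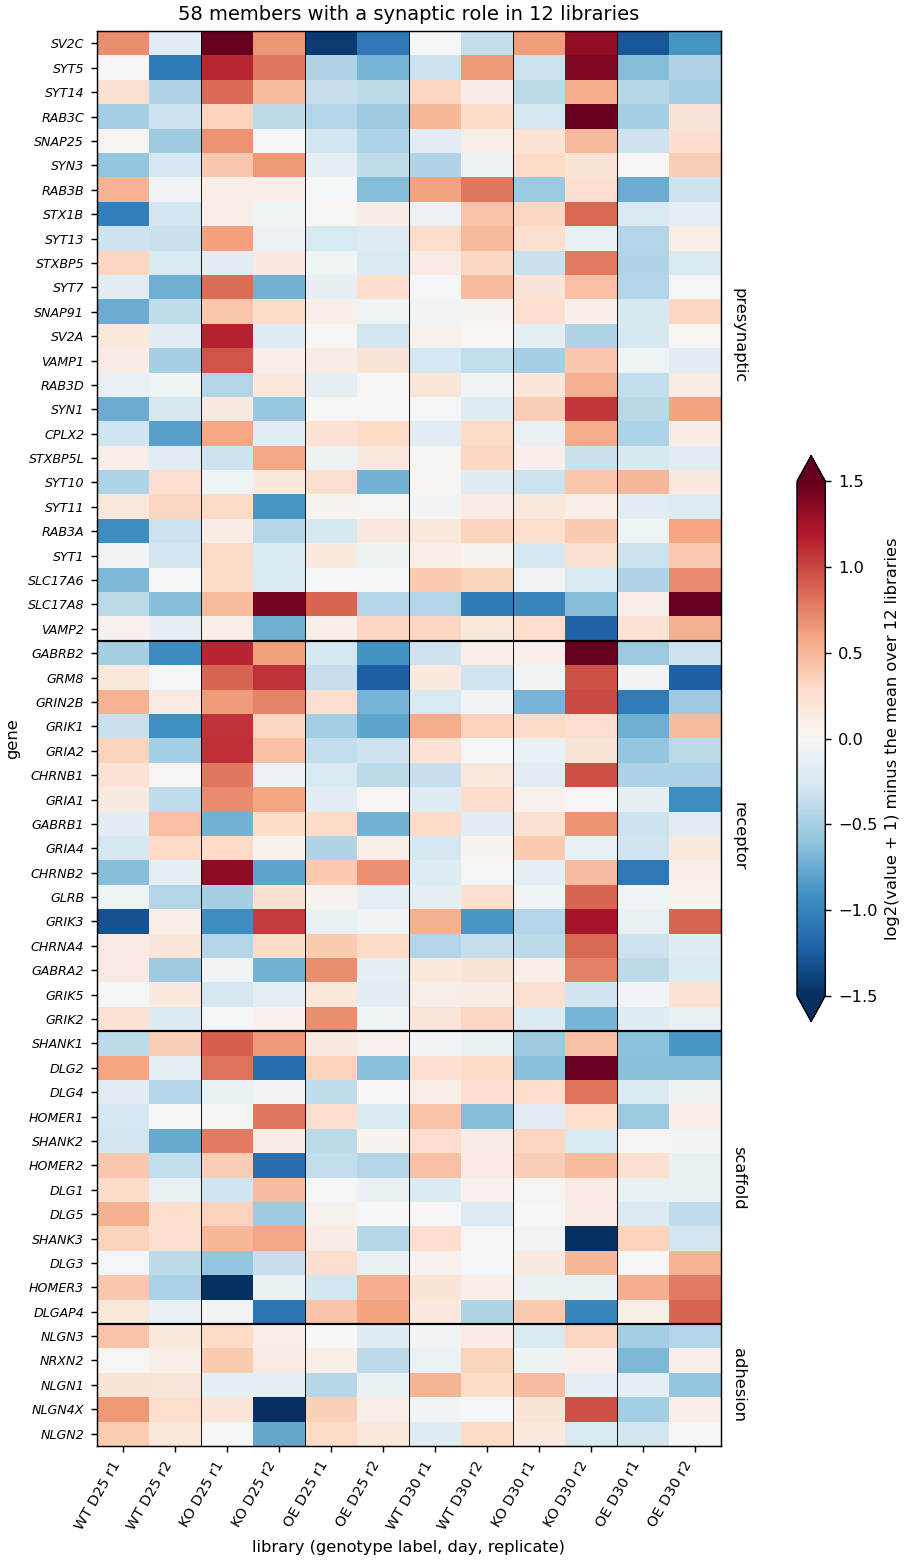
Each row is 1 of 58 members with a synaptic role and each column 1 library, and colour gives log2(value + 1) minus the mean of the gene over the 12 libraries, with the scale ending at 1.5 in both directions. Rows are ordered by OE against KO within each role. The dark red cells of SV2C, SYT5, GABRB2 and RAB3C stand in KO columns, whereas the highest value of SLC17A8 (293) stands in an OE column. The KO columns of 1 group often differ from each other.

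Between day 25 and day 30, averaged over WT, KO and OE, 0 members were called (limma, 0% of all genes). An unadjusted p under 0.05 was reached by 5 of 91 (11.3% of all genes did). The presynaptic median was 0.10 (20 higher, 6 lower) and the receptor median -0.015 (8 higher, 9 lower), against 0.015 over all genes. RAB3A, the RAB3 of neurons, was listed at 58 and 89 in WT at day 25 and 124 and 141 at day 30. Its KO libraries read 120 and 82 and then 134 and 147, and its OE libraries 94 and 123 and then 106 and 168. In WT and KO both libraries of day 30 lay above both of day 25, whereas in OE the days overlapped (log2 fold change 0.56, SE 0.187, limma adjusted p = 0.338). DLG4 had a log2 fold change of 0.38 (limma adjusted p = 0.346) and GRIN2B of -0.52 (0.534).

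The role medians rested on libraries to different extents. As a mean difference from the 12-library mean on the log2 scale, the presynaptic genes stood at 0.43 and 0.016 in the KO libraries of day 25 and at -0.027 and 0.35 in those of day 30. The receptor genes stood at 0.325 and 0.23, and at -0.051 and 0.55. KO replicate 1 of day 30 lay just below the WT libraries of that day (presynaptic 0.048 and 0.12, receptor 0.0074 and 0.017), and the other 3 KO libraries held the high receptor values. KO libraries held the highest of the 12 values for 16 of 17 receptor genes and for 18 of 26 presynaptic genes (94.1% and 69.2%), against 56.7% of all genes. KO replicate 2 of day 30 alone held it for 8 receptor and 6 presynaptic genes (47.1% and 23.1%), against 24.2% of all genes. KO libraries held the lowest value for 4 of 13 receptor genes and 6 of 25 presynaptic genes that had an untied lowest value, against 57.9% of all genes. Leaving out KO replicate 2 of day 30, the OE against KO medians were -0.19 for presynaptic genes (7 higher, 19 lower) and -0.24 for receptor genes (6 higher, 11 lower). The receptor median was -0.17 without OE replicate 1 of day 30 and -0.55 without KO replicate 1 of day 25. The presynaptic median was -0.12 without KO replicate 1 of day 25, -0.37 without KO replicate 2 of day 25 and -0.35 without OE replicate 2 of day 30. Which of the 2 roles lay farther from 0 changed with the library left out in KO against WT, where the presynaptic median was the larger without KO replicate 2 of day 25 (0.41 against 0.30).

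Markers of cell types were set beside these values, and the lists differed in direction. Of 9 neural progenitor markers listed (of 11 in the list), all 9 were lower in KO than in WT (median -0.63, 0 called). At an unadjusted p under 0.05, 5 of them were lower, as were 8.16% of all genes. In OE against KO, 8 were higher (median 0.80, 2 called), and 1.05% of all genes were called higher. The summed value of these markers ranged from 7369 to 14935 in WT, from 4346 to 8538 in KO and from 8212 to 10500 in OE. Of 11 neuron markers listed (of 12), 8 were higher in KO than in WT (median 0.27) and 5 were higher in OE than in KO (median -0.0041). At an unadjusted p under 0.05, 2 of them were higher and 1 lower in KO than in WT. In OE against KO, 1 was higher and 3 were lower at that threshold. Their summed value ranged from 7487 to 11081 in WT, from 9137 to 11936 in KO and from 8585 to 12348 in OE. Of 6 choroid plexus markers 5 were listed, with medians of 0.22 in KO against WT (3 higher, 2 lower) and 0.15 in OE against KO (3 higher, 2 lower), and their summed value ranged from 1368 to 4209 in WT, 1205 to 4650 in KO and 1302 to 3962 in OE. CLDN1, a tight junction protein, was the 1 of these called, lower in OE than in KO (log2 fold change -3.20, limma adjusted p = 0.00212). Of 5 mesenchyme markers the collagen gene COL1A2 alone was listed, from 84 to 198 in WT, 162 to 734 in KO and 61 to 224 in OE. Its log2 fold changes were 1.17 in KO against WT (limma adjusted p = 0.241) and -1.63 in OE against KO (limma adjusted p = 0.0578). The 1 listed marker of the oligodendrocyte lineage (of 4) had values of -0.064 and -0.48 in these comparisons. Only 2 of 6 thalamus markers were listed in the tables used here, so the labelled tissue could be checked only in part. The part of the cell mixture in the synaptic values was not tested.

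**Figure D4:**
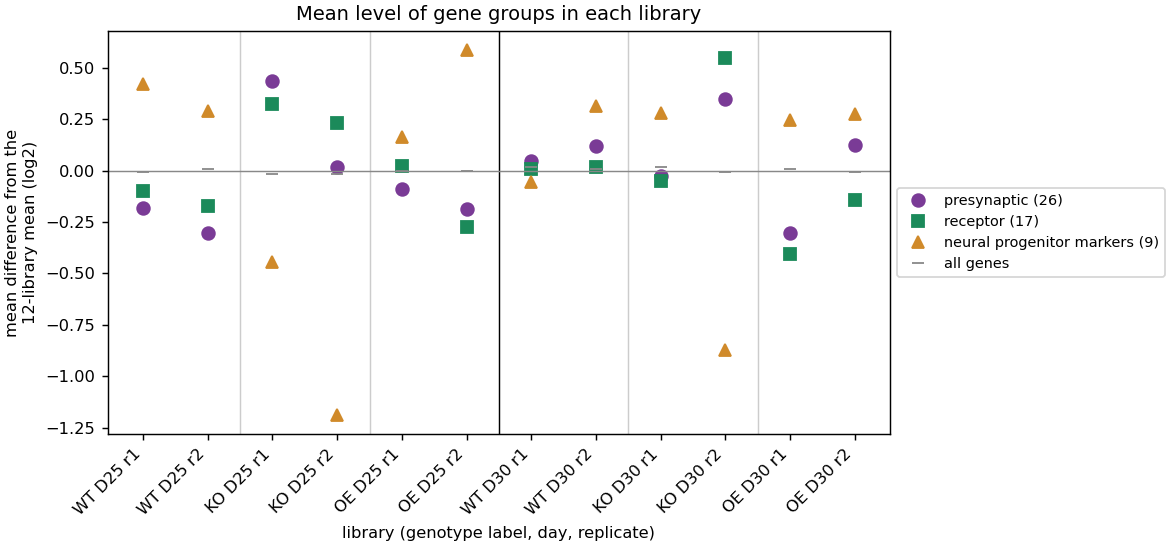
Mean over genes of log2(value + 1) minus the 12-library mean of each gene (vertical axis) for the presynaptic genes, the receptor genes, the neural progenitor markers and all genes, in each library. The receptor genes are highest in KO replicate 2 of day 30 (0.55), where the progenitor markers are low (-0.87), and KO replicate 1 of day 30 is near the WT libraries for both synaptic roles.

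Synaptic genes whose symbols fall outside these families were taken from a list of active zone, vesicle and postsynaptic genes. Of 68, 50 were listed, with a median of 0.22 in KO against WT (36 higher, 14 lower), -0.26 in OE against KO (12 higher, 38 lower) and -0.058 in OE against WT (21 higher, 29 lower). In OE against KO, 2 of the 50 were called, both lower, named here after their values were seen. Among all genes, 2.22% were called in either direction and 1.17% lower. CADPS2, which primes dense-core vesicles, was listed at 241 and 273 in KO and 60 and 70 in OE at day 25, and at 314 and 192 in KO and 162 and 58 in OE at day 30. APBA1, the adaptor Mint1, was listed at 123 and 92 in KO and 58 and 38 in OE at day 25, and at 82 and 172 in KO and 38 and 57 in OE at day 30. In both genes the OE libraries lay below all KO libraries, with log2 fold changes of -1.65 (limma adjusted p = 0.022) and -1.25 (limma adjusted p = 0.0435). OE lay wholly below KO in 4.51% of all genes.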

How the data were processed

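RNA-seq libraries were prepared from 3 pooled ThOs with TRIzol and a total RNA kit that keeps strand. The authors deposited 1 table per library with a gene identifier, position, symbol and a normalized expression score rounded to whole numbers. The submitters' processing notes name bcl2fastq, RSEM, Bowtie2 and hg19 without roles; normalization is not given in the sources used here, and all 91 members lie at their GRCh38 positions. All 12 tables shared their minimum, median and maximum, as after quantile normalization, and listed only genes above 10 in each library, so core genes such as STX1A and GRIN1 were not analysed here. Some members enter the counts but are not reported here by name. ATAC-seq (9) and CUT&Tag (2) samples were not analysed here.

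Values were tested as log2(value + 1) with limma 3.58.1 (R 4.3.3): 1 mean per group, 6 groups of 2, intensity trend, 6 residual degrees of freedom, Benjamini-Hochberg adjustment over 9497 genes, two-sided. The filter (at least 1 in 2 libraries) removed 0 genes. A call needed an adjusted p under 0.05 and 2-fold, for the difference between days the adjusted p alone. The fit was tested on simulated data. Because the members, the roles and the lists were chosen with earlier results of these data known, they were described by counts and medians without list tests. Named genes were called members, the 3 largest changes per direction among presynaptic and receptor genes in each averaged comparison, and core synaptic genes. Genes of counts of 5 or fewer, CHRNB1, RAB3C and SNAP91 were named after their values were seen. Alternatives were pseudocounts of 0.1 and 5, no filter, a mean of at least 50, quantile normalization, median centring, no trend, library weights, only the libraries compared, a replicate block and each library left out.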

Additional observations from a re-analysis of the deposited data

How the results depend on the processing

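Numbers of members called moved with the libraries in the fit. With each library left out in turn, members called ranged from 0 to 2 in KO against WT at day 25, 0 to 5 at day 30 and 0 to 3 averaged, and from 0 to 2 in OE against KO at day 25, 0 to 15 at day 30 and 1 to 12 averaged. The upper values at day 30 and averaged came without KO replicate 1 of day 30, where a lone library stands for the group, and there 11.4% and 5.66% of all genes were called in KO against WT and 15.2% and 10.2% in OE against KO. The upper values at day 25 came without KO replicate 1 of day 25, with 0.358% and 3.05% of all genes called. Without both KO libraries numbered 2 (chosen after the data were seen), the counts were 4 and 1 in KO against WT at day 25 and averaged, and 10 in OE against KO at day 25, beside 4.44%, 0.569% and 7.51% of all genes. For OE against KO averaged over days, the count of 2 became 0 with only the libraries compared, 1 with library weights and 1 without the intensity trend (0.116%, 0.432% and 1.39% of all genes). For OE against WT it became 1 with library weights at day 30 (RAB3B), and averaged 1 with library weights and 1 with only the libraries compared (SV2C in both). Scaling, pseudocount and filter alternatives changed no count of members by over 1.5 times.

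Log2 fold changes of named genes kept their direction and side of the threshold in 599 of 628 alternatives, and 8 reversed, none of a called gene. These were KO against WT for VAMP2 (0.080), SYT11 (0.086) and GRIK3 (-0.30) without both KO libraries numbered 2 and SYT11 (0.069) without KO replicate 2 of day 25. The rest were OE against KO for SLC17A6 without KO replicate 2 of day 25 (-0.014), OE replicate 2 of day 30 (-0.18) and both KO libraries numbered 2 (-0.056), and OE against WT for CHRNB2 without OE replicate 2 of day 30 (-0.023). With each library left out, the value of SYT11 ran from -0.51 to 0.069, that of SLC17A6 from -0.18 to 0.40 and that of CHRNB2 from -0.023 to 0.56. The cause was not tested. Replicate numbers did not pair the samples: replicate differences of 15 pairs of groups correlated between -0.21 and 0.26, so the numbers are only names. With the replicate block, 2 members were called in OE against KO averaged over days, SV2C (limma adjusted p = 0.015) and GRM8 (limma adjusted p = 0.0461), and no other count of members changed. Read depth is unknown, 2 libraries per group limit every test, and the tables hold no gene at or below 10.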
